A study of Zea mays with 15 samples.

Results

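Abscisic acid is the plant hormone of water deficit and seed dormancy, and 8 maize genes of its synthesis, its signalling and the dehydration response were followed here in the stem of plants sprayed with ethephon. The genes were chosen by name: *vp14*, *aba1*, *rab17*, *dhn2*, *DIP1*, *a4Lea*, *pp2c-1* and *PP2C*. Each was represented by 1 probe set, the one with the highest mean signal for that gene, so that the 8 make up 8 of the 17621 probe sets for maize transcripts on the array. All 8 passed a filter on mean signal that kept 10573 probe sets. RNA was taken from meristem tissue within the seventh internode, from maize (*Zea mays*) grown in a greenhouse; the line is not given in the sources used here. Plants with 8 leaves, at jointing, received a spray of ethephon at 600 mg/L (100 seedlings), a compound that releases ethylene inside the plant and shortens the stem, or of water (100 others). The 15 arrays covered 5 groups of 3: ethephon at 24 h, water at 24 h, ethephon at 48 h, water at 48 h, and untreated plants at 0 h. Each RNA came from 3 seedlings, so a p-value speaks of such pools from 1 greenhouse experiment.

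In plants abscisic acid is made from carotenoids. The step that usually limits its rate is the cleavage of an epoxy-carotenoid by 9-cis-epoxycarotenoid dioxygenase, the enzyme that *vp14* encodes. The hormone is sensed by receptors that, once bound, block protein phosphatases of type 2C. Those phosphatases otherwise hold back the kinases that switch on responsive genes, among them the dehydrins and other late embryogenesis abundant (LEA) proteins that accumulate in drying tissue and in maturing seeds.

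Values are MAS5 signals, a linear brightness summarised over the probes of a probe set, which do not allow the level of one gene to be set against another. Differences are on the log2 scale from a limma fit over all 10573 probe sets, with Benjamini-Hochberg adjustment and a threshold of 0.05. The median signal of an array ran from 298 to 370. Of 3 stem meristem homeobox genes, all of which passed the filter, *kn1* lay between 2524 and 4257 on the 15 arrays, *lg3* between 181 and 1984 and *knox7* between 202 and 579.9. Both *lg3* and *knox7* were under the filter level on some arrays. Of 9 seed genes, 1 passed the filter; none was at 0, and *glb1*, *glb2* and *vp1* among them also belong to the abscisic acid lists below. The signals of those 9 seed genes summed to between 1120 and 1356 in ethephon and between 1004 and 1135 in water at 24 h, to between 1151 and 1420 in ethephon and between 775 and 981 in water at 48 h, and to between 761 and 1140 in untreated plants. The seed gene past the filter, *gz27*, averaged 641 over the 15 arrays and weighed most in those sums. The 3′ to 5′ index, the mean log2 difference between 3′ and 5′ probe sets of 5 maize control pairs and a sign of RNA integrity, lay between 1.76 and 1.90 in ethephon and between 1.52 and 2.23 in water at 24 h. It lay between 1.70 and 1.92 in ethephon and between 0.92 and 1.52 in water at 48 h, and in the untreated group replicate 2 stood apart at 0.085 against 1.19 and 1.23. The part of the seed genes and of this index in the differences below was not tested beyond the fit with the index as a covariate.

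The synthesis gene *vp14* was higher in ethephon than in water at 24 h, without passing the adjusted threshold. Its signals were 918, 791 and 460 in ethephon at 24 h, against 317, 98.8 and 177 in water at 24 h. All 3 ethephon arrays lay above all 3 water arrays, an order that 7.05% of the tested probe sets also showed in that direction. The means were 723 ± 237 in ethephon and 198 ± 110 in water (SD, n = 3 each). The log2 difference was 1.97 ± 0.56 (SE), a 3.92-fold ratio with a 95% confidence interval of 0.77 to 3.18 on the log2 scale (limma, unadjusted p = 0.00375, adjusted p = 0.523). No probe set of the array passed the adjusted threshold in that comparison (0% called), while 951 of them (8.99%) had an unadjusted p under 0.05. In bulk tissue such as this, more cells of a type and more RNA per cell cannot be told apart.

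At 48 h the *vp14* signal was low in both sprays. It measured 181, 174 and 84.7 in ethephon, against 91.7, 153 and 89.2 in water, and the groups overlapped. The log2 difference was 0.36 ± 0.56 (limma, adjusted p = 0.994). Untreated plants gave 323, 90.7 and 269. The signals at 24 h after ethephon were therefore above those of all the other 12 arrays, whose highest was 323 and whose mean was 171, under the filter level of 218. The gene passed the filter through the ethephon arrays at 24 h. Their place above the other arrays, here and in the comparison with water, is therefore not independent of how the gene was kept. In 0.908% of the tested probe sets these 3 arrays stood above the other 12, and *vp14* was the 1 gene of the 8 for which this held. The change of the ethephon difference between the times was -1.61 ± 0.79, 48 h minus 24 h, which did not pass (limma, unadjusted p = 0.0622). Against untreated plants *vp14* differed by 1.80 ± 0.56 in ethephon at 24 h (limma, adjusted p = 0.0744), and by 0.75 in the fit with the 3′ to 5′ index as a covariate.

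**Figure D1:**
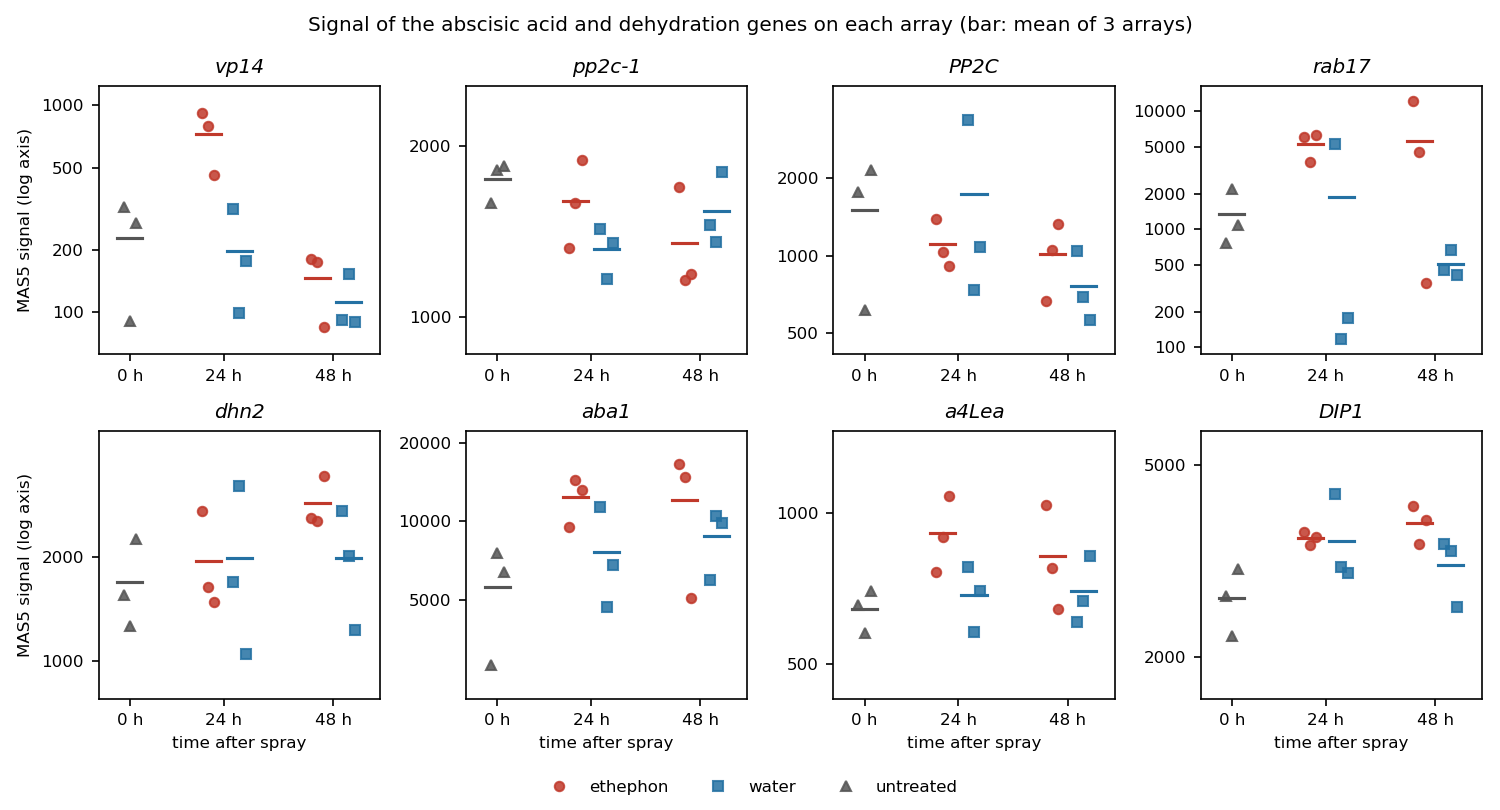
MAS5 signal (log axis) of the 8 genes on each of the 15 arrays against hours after the spray, with ethephon as circles, water as squares and untreated plants as triangles; bars are means of 3 arrays. The *vp14* signals of ethephon at 24 h, 460 to 918, lie above all other arrays, and the *rab17* signals run from 118 to 12069.

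Of the other genes for carotenoid and abscisic acid synthesis, 7 were on the array and 4 passed the filter. At 24 h all 4 were higher in ethephon than in water by estimate and none was called. Of all tested probe sets, 46.6% were higher in ethephon at 24 h and 52.8% at 48 h. *CCD1*, a carotenoid cleavage dioxygenase that acts outside this route, averaged 3463 ± 1871 in ethephon and 1929 ± 1557 in water at 24 h. *pds1*, for phytoene desaturase early in the carotenoid route, averaged 906 ± 238 in ethephon and 810.2 ± 76.1 in water at 24 h. The spread between arrays exceeded the difference for *CCD1*, whose log2 difference was 1.404 ± 1.28, and covered that of *pds1*, at 0.13 ± 0.23. At 48 h, 3 of the 4 were higher and 1, *HYD3*, was lower, by -0.70 ± 0.48. The aldehyde oxidase genes *AO1* and *AO2* and the phytoene synthase gene *psy2* were below the filter and were not tested.

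The signalling genes *pp2c-1* and *PP2C* encode phosphatases of type 2C; their names do not say whether they belong to the branch that acts with the receptor. *pp2c-1* measured 1319, 1587 and 1884 in ethephon at 24 h, against 1426, 1167 and 1351 in water. The 48 h signals were 1689, 1163 and 1193 in ethephon, against 1453, 1352 and 1799.6 in water. Untreated plants gave 1587, 1809 and 1838, and all 3 water arrays at 24 h lay below them, an order shared by 11% of the tested probe sets. Ethephon minus water was 0.27 ± 0.19 at 24 h and -0.20 ± 0.19 at 48 h (limma, adjusted p = 0.590 and 0.994). The water difference from untreated plants at 24 h was -0.41 ± 0.19 (limma, adjusted p = 0.264).

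*PP2C* varied more between arrays of a group than between sprays. It measured 1396, 1035 and 914 in ethephon at 24 h, against 3385, 734 and 1086 in water. Its 48 h signals were 666, 1051 and 1326 in ethephon, against 1046, 694 and 562 in water, and untreated plants gave 1766, 616 and 2161. The estimate at 24 h was -0.34 ± 0.56, and 0.30 without water 24 h replicate 1, the array at 3385. The second probe set annotated to this gene gave -0.08 at 24 h and -0.04 at 48 h for ethephon minus water. On that probe set both sprays were below untreated plants by estimate, and neither passed. The differences at 48 h were -0.61 for ethephon and -0.57 for water (limma, unadjusted p = 0.0143 and 0.0210, adjusted p = 0.183 and 0.379). At 24 h they were -0.41 for ethephon and -0.33 for water. All ethephon arrays at 24 h and 48 h, and all water arrays at 48 h, lay below the untreated arrays there. Such orders were shown by 13.6%, 8.85% and 6.62% of the tested probe sets. The highest ethephon signal at 24 h was 1074, close to the lowest untreated signal of 1089.

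Among other signalling genes, 7 were on the array and 4 passed the filter, all calcium-dependent protein kinase genes. None was called in any comparison. *CDPK2* averaged 2135 ± 171 in ethephon and 2350 ± 239 in water at 24 h. *CDPK* averaged 1205 ± 134 in ethephon and 1263 ± 179 in water at 24 h. Their log2 differences were -0.14 ± 0.17 and -0.06 ± 0.18, and the other 2 genes were higher in ethephon by estimate. One of these, named after its values were seen, was *CDPK1*, which averaged 1307 ± 372 in ethephon and 756.1 ± 79.1 in water at 24 h, a difference of 0.76 ± 0.26 (limma, unadjusted p = 0.0134, adjusted p = 0.545). At 48 h, 3 of the 4 were higher and 1 lower, beside 52.8% of all tested probe sets higher. The transcription factor gene *vp1*, which acts in abscisic acid responses of the seed, was below the filter.

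*rab17*, a dehydrin gene also named *dhn1*, showed the widest range of the 8 genes. Its signals were 5997, 3673 and 6225 in ethephon at 24 h, against 5275, 118 and 177 in water. Water arrays 2 and 3 were far below the ethephon arrays and replicate 1 lay among them. The arrays at 48 h read 12069, 4455 and 349 in ethephon, against 449, 663 and 406 in water. Here 2 ethephon arrays were above all water arrays, and replicate 3 was below them. Untreated plants gave 758, 2178 and 1077, above all 3 water arrays at 48 h, an order seen in 6.62% of the tested probe sets. The means were 5298 ± 1412 in ethephon and 1857 ± 2960 in water at 24 h, and 5624 ± 5947 in ethephon and 506 ± 138 in water at 48 h (SD, n = 3 each).

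The log2 difference of *rab17* at 24 h was 3.43 ± 1.34, with a 95% confidence interval of 0.52 to 6.33 (limma, unadjusted p = 0.0245, adjusted p = 0.545). It was 5.16 without water 24 h replicate 1 (adjusted p = 0.139) and 2.41 without water 24 h replicate 2 (adjusted p = 0.916). At 48 h the difference was 2.42 ± 1.34 (limma, adjusted p = 0.994), 3.89 without ethephon 48 h replicate 3 and 1.33 without ethephon 48 h replicate 1. Ethephon minus untreated was 2.09 ± 1.34 at 24 h and 1.13 ± 1.34 at 48 h (limma, adjusted p = 0.375 and 0.709). With arrays weighted by their estimated quality, *vp14* and *rab17* passed for ethephon minus water at 24 h, at 2.42 and 4.22 (limma, adjusted p = 0.0285 and 0.0495). *vp14* had passed the filter through the ethephon arrays at 24 h. In the weighted fit 169 probe sets were called. There, water 24 h replicate 1, the array with *rab17* at 5275, had a weight of 0.56. Water 24 h replicates 2 and 3, with *rab17* at 118 and 177, had weights of 2.07 and 1.41. Ethephon 24 h replicates 1, 2 and 3 had weights of 0.85, 3.16 and 0.53. The part of these weights in the calls was not tested. The within-group SD of *rab17* was 1.84 on the log2 scale, above that of 98.5% of the tested probe sets, whose median was 0.33.

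The other dehydrin gene, *dhn2*, did not follow *rab17*. It measured 2724, 1644 and 1482 in ethephon at 24 h, against 1697, 3229 and 1051 in water. At 48 h it measured 2597, 2553 and 3452 in ethephon, against 2729.6, 2020.4 and 1229 in water, and untreated plants gave 1556, 1263 and 2258. The groups overlapped at both times, with differences of 0.07 ± 0.40 at 24 h and 0.59 ± 0.40 at 48 h (limma, adjusted p = 0.953 and 0.994). All 3 ethephon arrays at 48 h were above all untreated arrays, which 10.2% of the tested probe sets also showed, and the difference was 0.79 ± 0.40 (limma, adjusted p = 0.342). The 2 further probe sets of the gene gave -0.04 and 0.04 at 24 h, and 0.38 and 0.54 at 48 h, for ethephon minus water. On both, ethephon at 48 h overlapped untreated plants. Their lowest ethephon signals were 301 and 1708, and their highest untreated signals 320 and 1719.

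*aba1* is listed by RefSeq under the synonym *asr1*, the name of the abscisic acid, stress and ripening proteins, small hydrophilic proteins of water deficit. It gave 9499, 14482 and 13227 in ethephon at 24 h, against 11403, 4698 and 6819.8 in water. The later arrays, at 48 h, gave 16572, 14785 and 5085 in ethephon, against 5979, 10538 and 9877 in water, and untreated plants gave 2811, 7596 and 6402. Ethephon and water overlapped at both times, with differences of 0.77 ± 0.48 and 0.33 ± 0.48 (limma, adjusted p = 0.577 and 0.994). With 1 array left out they ran from 0.47, without water 24 h replicate 2, to 1.11 at 24 h, and from 0.022, without ethephon 48 h replicate 1, to 0.87, without ethephon 48 h replicate 3. All 3 ethephon arrays at 24 h lay above the untreated arrays, an order that 14.2% of the tested probe sets also showed. The difference was 1.24 ± 0.48 (limma, unadjusted p = 0.0236, adjusted p = 0.142). At 48 h, with overlap, ethephon minus untreated was 1.06 ± 0.48 (limma, unadjusted p = 0.0474, adjusted p = 0.293). The second probe set of the gene gave smaller differences, 0.32 for ethephon minus water and 0.51 for ethephon minus untreated, both at 24 h. On it the ethephon arrays at 24 h, from 6487 up, overlapped the untreated arrays, which reached 8502.

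*a4Lea*, named as a LEA gene, had a narrower spread. It measured 762, 894 and 1081 in ethephon at 24 h, against 781, 579.4 and 700.4 in water. At 48 h it measured 1037, 776 and 644 in ethephon, against 607, 669 and 821 in water, and untreated plants gave 654, 576 and 701. Ethephon minus water gave 0.41 ± 0.21 at 24 h and 0.21 ± 0.21 at 48 h (limma, adjusted p = 0.563 and 0.994). Ethephon at 24 h was above untreated plants with no overlap, as were 14.2% of the tested probe sets. The difference was 0.49 ± 0.21 (limma, adjusted p = 0.173), and 0.28 with the 3′ to 5′ index as a covariate (limma, adjusted p = 0.727). The other 4 responsive genes on the array, *mlg3*, *glb1*, *EMB5* and *glb2*, were all below the filter and were not tested. *mlg3* averaged 55.4 ± 5.7 in ethephon and 91.5 ± 40.5 in water at 24 h, and *glb1*, a seed globulin gene, 59.2 ± 3.5 in ethephon and 51.2 ± 19.8 in water.

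*DIP1* encodes a partner of DBF1, a factor that binds the *rab17* promoter in maize. Its arrays lay close together, at 3639, 3409.9 and 3553 in ethephon at 24 h, against 4363, 3066 and 2992 in water. At 48 h it gave 4103, 3425 and 3842 in ethephon, against 3438, 3319 and 2544 in water, and untreated plants gave 2673, 2216 and 3048. Ethephon differed from water by 0.05 ± 0.18 at 24 h and by 0.30 ± 0.18 at 48 h (limma, adjusted p = 0.920 and 0.994). Both ethephon groups were above untreated plants without overlap, as 14.2% (24 h) and 10.2% (48 h) of the tested probe sets also were. The differences were 0.43 ± 0.18 at 24 h and 0.53 ± 0.18 at 48 h (limma, adjusted p = 0.157 and 0.158). Water at 24 h was above untreated plants by 0.38 ± 0.18, with overlap (limma, adjusted p = 0.261). With the index as a covariate these 3 differences were 0.24, 0.34 and 0.17.

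All 3 other genes of this regulator list passed the filter and none was called. *dbf1* averaged 1243 ± 438 in ethephon and 791 ± 295 in water at 24 h, and 1236 ± 699 in ethephon and 717 ± 196 in water at 48 h. Its log2 differences were 0.65 ± 0.42 and 0.67 ± 0.42 (limma, adjusted p = 0.578 and 0.994). *DREB2*, named for binding the dehydration response element, differed by 0.23 ± 0.34 and 0.43 ± 0.34. *dbf2* differed by 0.03 ± 0.28 at 24 h and by -0.42 ± 0.28 at 48 h. So 3 of 3 were higher at 24 h (46.6% of all tested probe sets), and 2 higher and 1 lower at 48 h (52.8% higher).

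**Figure D2:**
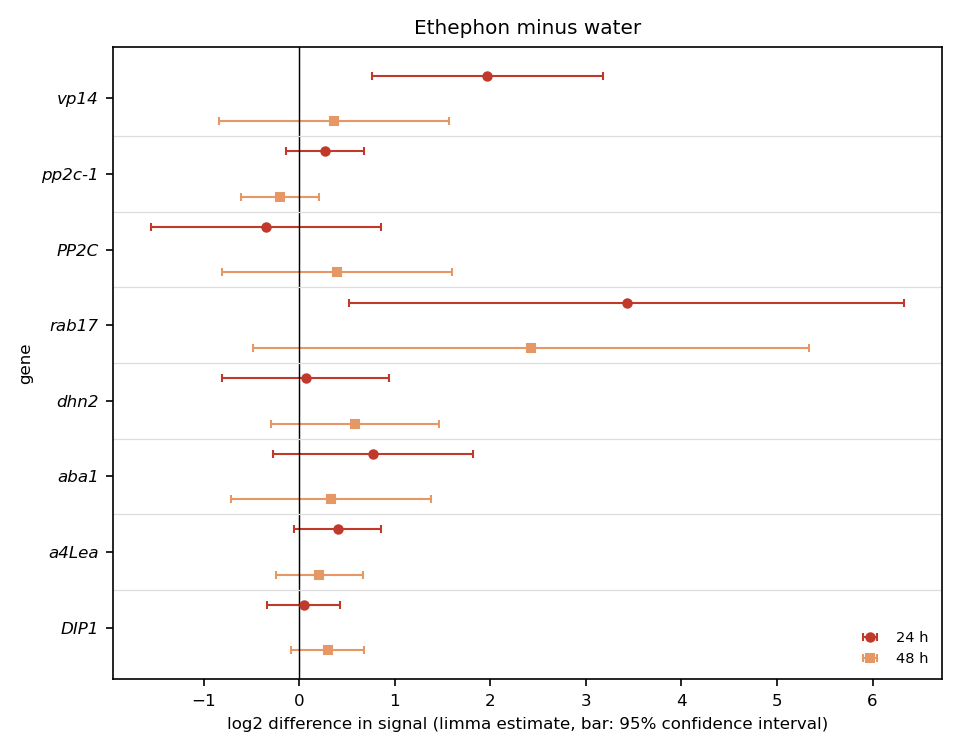
Log2 difference in signal of ethephon minus water at 24 h (circles) and 48 h (squares) for the 8 genes, with 95% confidence intervals from limma that are not adjusted for the number of probe sets. At 24 h the intervals of *vp14* (0.77 to 3.18) and *rab17* (0.52 to 6.33) lie above 0, and all others span it.

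Over the 8 genes, 7 were higher and 1 lower in ethephon than in water at 24 h, with a median difference of 0.34 against -0.03 over all tested probe sets. At 48 h the count was again 7 higher and 1 lower, with a median of 0.35 against 0.02. Of all tested probe sets, 46.6% were higher in ethephon at 24 h and 52.8% at 48 h. The gene that was lower was *PP2C* at 24 h and *pp2c-1* at 48 h. None of the 8 passed the adjusted threshold. At an unadjusted p under 0.05 there were 2 of 8 at 24 h, against 8.99% of all probe sets, and 0 of 8 at 48 h, against 3.24%. For the change between times there were 0 of 8, against 0.927%. The 2 at 24 h were *vp14* and *rab17*. *vp14* passed the filter through the ethephon arrays at 24 h, so its place in this count is not independent of the filter. Besides *vp14* at 24 h, no gene of the 8 separated ethephon from water: none had all ethephon arrays lower at 24 h (10.8% of all probe sets), higher at 48 h (5.14%) or lower at 48 h (3.9%).

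The comparisons of sprayed with untreated plants share the 3 untreated arrays, and spray and time after it cannot be told apart there. The 3′ to 5′ index differed as well. It was 1.52 or above on all arrays of ethephon and of water at 24 h, and 1.23 or below on all untreated arrays. With the index as a covariate, probe sets called fell from 586 to 4 for ethephon at 24 h and from 144 to 11 at 48 h. For water at 24 h they fell from 182 to 8. Sums of markers of other tissues differed in part. Green leaf sums of water at 24 h and of ethephon at 48 h lay below untreated plants, and the other sprayed groups overlapped them. Lignin and secondary wall sums of water at 24 h and 48 h lay below, and both ethephon groups overlapped. The signals of 10 green leaf genes, 8 of them past the filter, summed to between 21538 and 43195 in ethephon at 24 h, 30763 and 34684 in water at 24 h, 25473 and 35310 in ethephon at 48 h, 27518 and 51142 in water at 48 h, and 38103 and 64286 in untreated plants. The sums of 5 lignin and secondary wall genes, all past the filter, lay between 12039 and 33634, 9434 and 13119, 11139 and 32665, 10247 and 16544, and 17421 and 24165 in the same 5 groups. No gene of either list was at 0, and their part in the differences was not tested. None of the 8 genes was called in any of the 4, while 5.54% of all probe sets were called for ethephon at 24 h, 1.72% for water at 24 h, 1.36% for ethephon at 48 h and 0.794% for water at 48 h. The median over the 8 genes was 0.46 for ethephon and 0.08 for water at 24 h, and 0.43 for ethephon and -0.04 for water at 48 h, beside 0.02 to 0.06 over all probe sets. Ethephon arrays at 24 h lay above all untreated arrays for 5 genes, *vp14*, *aba1*, *rab17*, *DIP1* and *a4Lea*, beside 14.2% of all probe sets. At 48 h this held for *dhn2* and *DIP1*, beside 10.2% of all probe sets. The second probe set of *aba1* at 24 h and the 2 further probe sets of *dhn2* at 48 h overlapped the untreated arrays. *vp14* passed the filter through the ethephon arrays at 24 h, so its place among the 5 is not independent of the filter. None of the 8 had all ethephon arrays below the untreated ones at 24 h (13.6% of all probe sets) or 48 h (8.85%), or all water arrays above them at 24 h (12.6%) or 48 h (7.05%). This is for the 1 probe set followed per gene. The second *PP2C* probe set had all ethephon arrays below the untreated ones at both times. An unadjusted p under 0.05 was reached by 4 of 8 for ethephon at 24 h (23.8% of all probe sets), 2 of 8 for water at 24 h (18.9%), 2 of 8 for ethephon at 48 h (16.6%) and 0 of 8 for water at 48 h (9.91%). The 4 for ethephon at 24 h include *vp14*, which was kept by the filter through those arrays. Array 2 of the untreated group, the one with the low 3′ to 5′ index, was its lowest array for 5 genes, *vp14*, *dhn2*, *DIP1*, *a4Lea* and *PP2C*, beside 47.9% of all probe sets, and its highest for *aba1* and *rab17*, beside 28.3%.

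**Figure D3:**
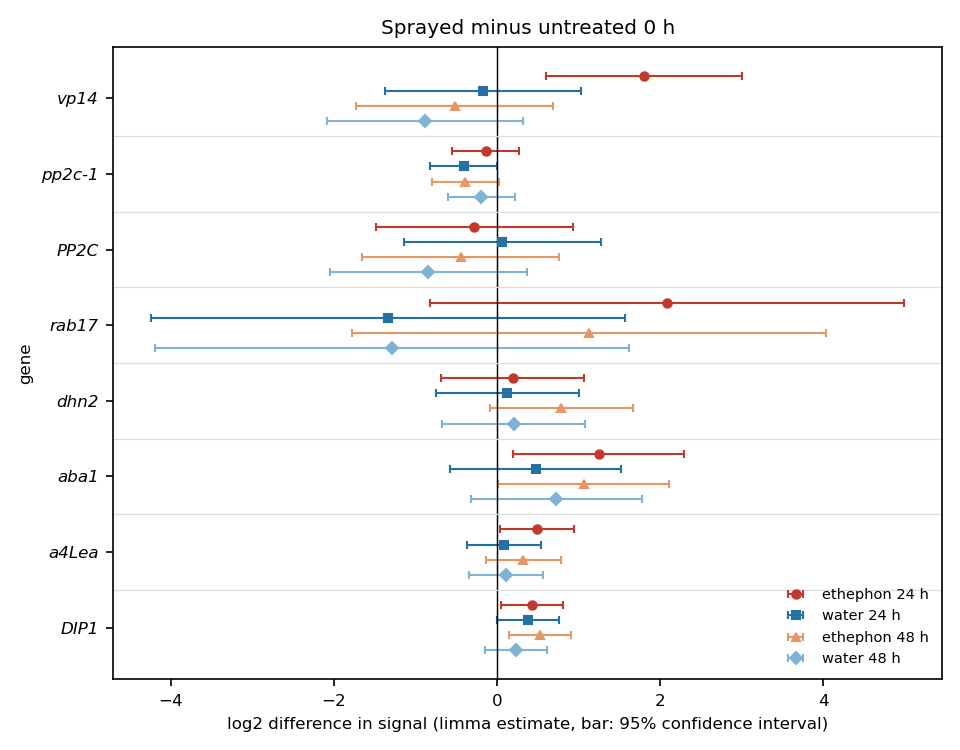
Log2 difference in signal of each sprayed group minus untreated plants for the 8 genes (limma, 95% confidence intervals not adjusted for the number of probe sets). For *vp14* the ethephon estimate at 24 h is 1.80 and the other 3 groups are below 0, and for *DIP1* all 4 estimates are above 0.

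With groups ordered by mean signal within each gene, 28 of the 32 gaps between neighbours were within the larger of the 2 SDs, and 30 of the 32 neighbouring pairs overlapped in range. Single arrays carried several of the genes. Water 24 h replicate 1 was the highest of its group for 7 of the 8 genes, all but *dhn2*, where 42.6% of all tested probe sets were highest on that array. Ethephon 48 h replicate 1 was the highest of its group for 6 of the 8, beside 41.5% of all probe sets.

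Pearson's r of log2 signal over the 15 arrays ran from -0.56 to 0.75 over the 28 pairs of genes, with a median of 0.32. The arrays share groups and preparation, so these are descriptions. *rab17* and *aba1* had r = 0.71 and Spearman's rho = 0.72, and r = 0.78 within groups; r was 0.60 without the 2 arrays farthest in *rab17* and 0.76 without the 2 farthest in *aba1*. *aba1* and *a4Lea* had r = 0.75 and rho = 0.79. *rab17* and *dhn2*, the dehydrin pair, had r = -0.004 and rho = -0.05. *vp14* and *rab17* had r = 0.60 and rho = 0.64.

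**Figure D4:**
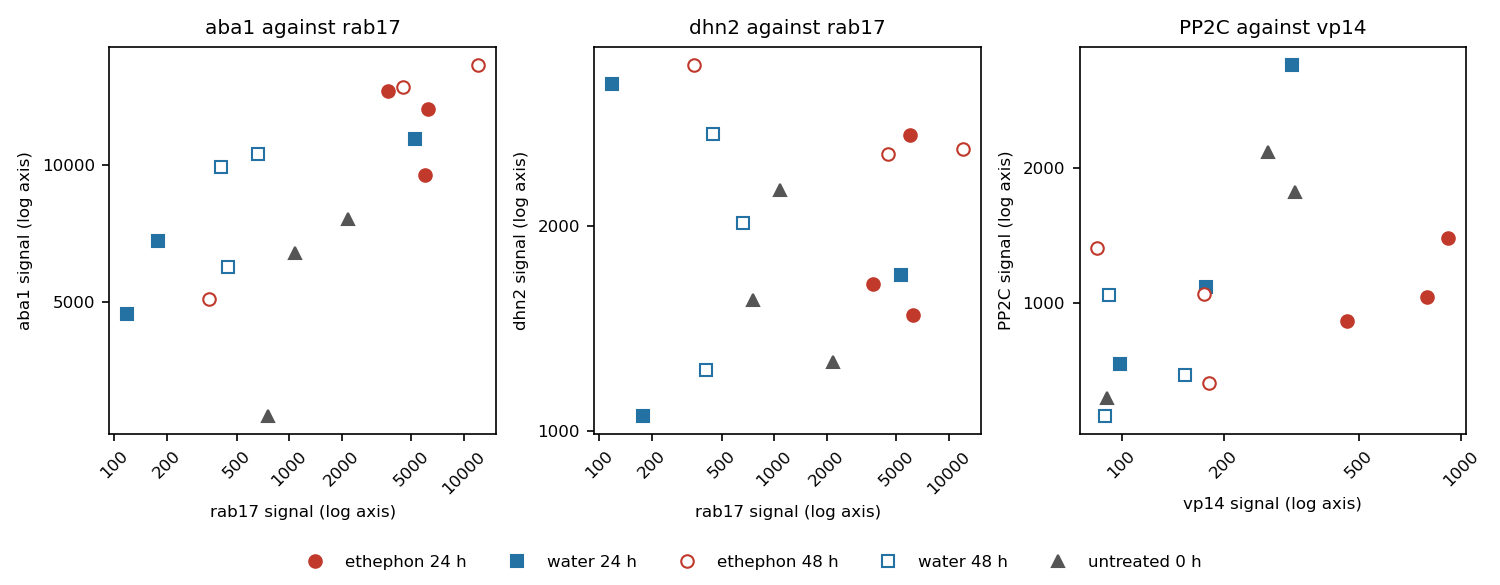
Signal of 3 pairs of genes on the 15 arrays (log axes), with ethephon as circles, water as squares and untreated plants as triangles, filled at 24 h and open at 48 h for the sprays. *aba1* is high where *rab17* is high (r = 0.71), and *dhn2* shows no such order against *rab17* (r = -0.004).

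Among 761 other named genes, the pattern most like that of *vp14* over the 15 arrays was that of *CYP88A1*, also named *d3*, a gibberellin synthesis gene (r = 0.82, rho = 0.72, and r = 0.42 within groups). *CYP88A1* averaged 224 over the 15 arrays, near the filter level of 218. Next was *etr2*, named as an ethylene receptor gene (r = 0.81, rho = 0.63). Without the 2 arrays farthest in *vp14*, r was 0.69 for *CYP88A1* and 0.60 for *etr2*. For *rab17* the closest were *AGA1* (r = 0.93, rho = 0.92) and *Cystatin* (r = 0.90, rho = 0.90), and for *aba1* they were *trh2*, with the synonym *trxh2* (r = 0.92, rho = 0.89), and *LOC732827* (r = 0.88). *dhn2* was closest to *AGP2* (r = 0.86) and *ark* (r = 0.79), *DIP1* to *SRP1D* (r = 0.95) and *LOC541826* (r = 0.92), and *a4Lea* to *vacs1* (r = 0.91) and *cax1* (r = 0.88). *pp2c-1* was closest to *hir3* (r = 0.86) and *pip1-2* (r = 0.85), and *PP2C* to *gsy199(ptk)* (r = 0.72) and *RR8* (r = 0.71).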

How the data were processed

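The deposited table holds linear MAS5 signal intensities for 17734 probe sets on 15 arrays; that the authors used MAS5 is per the submitters' processing notes, and its version, scaling target and detection calls are not given in the sources used here. RNA was extracted with Trizol and amplified with a 3′ IVT kit, per the labels' protocols, so a signal reports mainly the 3′ end of a transcript. Control probe sets (113) were left out, values were taken as log2 with no offset, and probe sets with a mean signal over all arrays under the 40th percentile (218) were removed. Group means were fitted with limma 3.58.1 in R 4.3.3 (trended eBayes, 10 residual degrees of freedom), and 7 contrasts were adjusted over the 10573 probe sets kept; the code was tested on simulated data. The platform annotation pairs 1452 probe sets with exactly 1 gene, 1 with several and 16168 with none, and 1060 of the 1108 gene IDs were found in RefSeq. The members and gene lists were chosen with earlier results of these data known. All 8 members were followed in every comparison, and the text gives their signals on every array but not every difference. The 2 brightest genes of each pathway list and the 2 genes most like each member are named. Further genes, such as *CDPK1*, *HYD3* and *dbf2*, were named outside this rule. The symbol rules also took 8 genes that are not of this pathway, and these were left out. The replicate numbers were not treated as pairs. Over the 30 same-numbered pairs of arrays from different groups, deviations from the group means correlated at -0.54 to 0.63 and 10 exceeded 0.1; between ethephon and water they lay at -0.36 to 0.07 at 24 h and -0.45 to 0.29 at 48 h, while all 3 pairs of ethephon at 24 h with water at 48 h, which were not compared, exceeded 0.1 (0.40, 0.11 and 0.25). Alternatives were an offset of 32, no filter, quantile normalization, array weights, the replicate number as a block, the 3′ to 5′ index as a covariate and leaving out each array.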

Additional observations from a re-analysis of the deposited data

How the results depend on the processing

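None of the 8 genes was called in any of the 7 comparisons with an offset of 32, with no filter, after quantile normalization, with the replicate block, with the index as a covariate or with any 1 array left out. With array weights 2 were called for ethephon minus water at 24 h, *vp14* and *rab17*, and 2 for ethephon at 24 h minus untreated, *aba1* (1.76, adjusted p = 0.0165) and *vp14* (1.54, adjusted p = 0.0360). Of the 10573 tested probe sets, that fit called 169 for ethephon minus water and 1727 for ethephon minus untreated, both at 24 h. *vp14* was kept by the filter through the ethephon arrays at 24 h, which both comparisons use. Probe sets called for ethephon at 24 h minus untreated, 586 as reported, were 937 with no filter, 1727 with array weights, 359 with the replicate block and 4 with the index as a covariate. For ethephon at 48 h minus untreated, 144 as reported, they were 73 with the replicate block and 11 with the index. For water at 24 h minus untreated, 182 as reported, they were 326 with array weights, 96 with the replicate block and 8 with the index. For water at 48 h minus untreated, 84 as reported, they were 189 with array weights and 55 with the index, and for ethephon minus water at 24 h 169 were called with array weights. With 1 array left out these counts ran from 113 to 647, 46 to 147, 68 to 176, 49 to 68 and 0 to 2 in that order; they were 0 to 1 for ethephon minus water at 48 h and 0 to 1 for its change between times. The lowest counts came without untreated replicate 2 (113), ethephon 48 h replicate 1 (46), water 24 h replicate 2 (68) and water 48 h replicate 1 (49). The replicate block changed no call among the 8 genes (*vp14* at 24 h, adjusted p = 0.628). The causes were not tested.

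Changes of sign occurred for differences that had not passed. With array weights these were *dhn2* (-0.16) and *PP2C* (0.054) for ethephon minus water at 24 h, *PP2C* (-0.65) and *a4Lea* (-0.022) for water at 24 h minus untreated, and *a4Lea* (-0.012) for water at 48 h minus untreated. After quantile normalization they were *DIP1* (-0.017) for ethephon minus water at 24 h and *a4Lea* (-0.0089) for water at 24 h minus untreated. With the index they were *vp14* (-0.16) and *PP2C* (-0.26) for ethephon minus water at 48 h, *PP2C* (-0.024) for the change between times, and *PP2C* (-1.35) and *a4Lea* (-0.14) for water at 24 h minus untreated.

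With 1 array left out, ethephon minus water at 24 h ran from -0.32 to 0.49 for *dhn2*, -0.050 to 0.22 for *DIP1* and -0.80 to 0.30 for *PP2C*. Its change between times ran from -0.78 to 0.10 for *aba1* and -2.73 to 0.46 for *rab17*. Ethephon at 24 h minus untreated ran from -0.074 to 0.42 for *dhn2* and -0.83 to 0.073 for *PP2C*. Water at 24 h minus untreated ran from -0.011 to 0.20 for *a4Lea*, -0.30 to 0.51 for *dhn2*, -0.57 to 0.53 for *PP2C* and -0.74 to 0.25 for *vp14*. Water at 48 h minus untreated ran from -0.0099 to 0.21 for *a4Lea* and -0.061 to 0.52 for *dhn2*. Without a change of sign, ethephon minus water at 48 h ran from 0.17 to 0.72 for *vp14*, 0.27 to 0.85 for *dhn2*, 0.16 to 0.38 for *DIP1*, 0.028 to 0.37 for *a4Lea*, 0.17 to 0.67 for *PP2C* and -0.37 to -0.078 for *pp2c-1*, which at 24 h ran from 0.14 to 0.40. The number of arrays, 3 per group, limits the precision throughout.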
